A study of Mus musculus with 18 samples.

Results

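This account describes 10 mouse genes of inhibitory immune checkpoints and T cell exhaustion, Pdcd1, Ctla4, Lag3, Havcr2, Tigit, Cd244, Cd274, Pdcd1lg2, Ido1 and Tox, in subcutaneous melanomas. They were found by their Ensembl identifiers among the 37620 gene identifiers of the count files. All 10 had counts and passed the filter on low counts (Cd244 stands in the annotation under its newer symbol Cd244a).

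RNA was sequenced from MO4 tumours, a B16F10 melanoma line that carries ovalbumin, grown in C57BL/6 mice from 100000 cells under the skin of each hindlimb on day 0. Treated mice received 1000000 cells per injection around the right tumour on days 5, 6 and 7. These were iPSC-pMCs (called pMC here) or IFN-α-iPSC-pMCs (called IFN-alpha-pMC), and control mice received no treatment. Tumours of both sides were taken on day 11, which gave 6 groups of 3 libraries each: control, pMC and IFN-alpha-pMC, right (the injected side) and left (the distant side). The labels do not say whether the 3 libraries of a group came from separate mice, nor whether a right and a left library with the same number came from 1 mouse, and each p-value therefore rests on the spread between libraries that may be technical repeats. In bulk tumour RNA, fewer cells of a type and less RNA per cell cannot be told apart.

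Inhibitory checkpoints are pairs of a receptor on T cells or natural killer (NK) cells and a ligand on tumour or myeloid cells that restrain the receptor's cell. T cells under lasting antigen exposure, as in tumours, often carry several of these receptors together and express the transcription factor TOX, a state called exhaustion. The ligand PD-L1 and the enzyme IDO1 are also known to be induced by interferons, in tumour cells and in myeloid cells.

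Cd274 and Pdcd1lg2, the genes of the ligands PD-L1 and PD-L2, follow each other among the protein-coding genes of chromosome 19, and both rose with IFN-alpha-pMC against pMC on both sides, so the 250 bases before the start of each are shown here (RefSeq, GRCm38.p6, plus strand). The Cd274 stretch is chr19:29367188-29367437 and the Pdcd1lg2 stretch is chr19:29410669-29410918. No letters are in capitals, because neither of the motifs searched was found.
Cd274: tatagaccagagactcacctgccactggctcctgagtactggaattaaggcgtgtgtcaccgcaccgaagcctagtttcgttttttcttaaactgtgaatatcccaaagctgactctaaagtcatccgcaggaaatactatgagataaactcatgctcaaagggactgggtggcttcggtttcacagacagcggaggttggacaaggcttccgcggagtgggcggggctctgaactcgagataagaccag
Pdcd1lg2: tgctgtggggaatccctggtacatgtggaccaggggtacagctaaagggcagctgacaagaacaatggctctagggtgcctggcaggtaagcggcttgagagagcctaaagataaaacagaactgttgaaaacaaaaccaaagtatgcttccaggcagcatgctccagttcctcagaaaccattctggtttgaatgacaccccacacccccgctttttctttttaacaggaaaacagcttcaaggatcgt
Promoter windows were at hand for 7 of the 10 genes (Pdcd1, Cd274, Pdcd1lg2, Havcr2, Tigit, Ctla4 and Cd244). Both strands were searched for the interferon-gamma activated sequence TTCNNNGAA (GAS) and for the core of the interferon-stimulated response element (ISRE; GAAA, any 2 letters, GAAA). None of the 7 windows held either. Of 32851 windows of the same length, 7.02% held the first and 2.98% the second.

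Libraries held 14346091 to 23430259 counts, so that 3 counts correspond to between 0.128 and 0.209 CPM (counts per 1000000 counts). The 7 melanocyte markers had no member past the test in either comparison of IFN-alpha-pMC with control (median log2 fold change -0.02 on the right and 0.27 on the left). An earlier analysis of these data found 3 libraries apart: the third right control, the third right IFN-alpha-pMC tumour and, on the left, the first IFN-alpha-pMC tumour. Each differed from the other libraries of its group by more than they did among themselves, by 0.89, 0.68 and 0.72 on the log2 scale (root mean square over all tested genes). The right control libraries differed among themselves more than those of the other groups did, and their other values were 0.75 and 0.81. The 3 libraries were picked within these same data for standing apart. A fit without them therefore uses a spread narrowed by that choice, and it lacks a library in each of those 3 groups. Calls that such a fit adds are not independent support. The share of read pairs in no gene was 4.04 to 6.12% in the 6 IFN-alpha-pMC libraries and 6.87 to 12.21% in the 12 others.

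Levels below are CPM of library totals scaled by TMM (trimmed mean of M values), and fold changes come from edgeR's quasi-likelihood test on the counts with Benjamini-Hochberg adjustment over all 14849 genes tested. A gene is said to rise or fall where its adjusted p is under 0.05.

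On the injected side, all 10 genes rose with IFN-alpha-pMC against control, where 8.78% of all genes tested rose and 2.01% fell. Their median log2 fold change was 2.38, against -0.03 over all genes, and all 10 had every IFN-alpha-pMC library above every control library, which 13.3% of all genes did. Against pMC, 8 of the 10 rose (8.88% of all genes), with a median log2 fold change of 2.07 over the 10. All 10 had every IFN-alpha-pMC library above every pMC library. This held for 16.2% of all genes, and 8.86% had every one below. Between pMC and control none of the 10 passed the test on the right, as none of all genes did (0% on that test). None of the 10 had every pMC library above every control library (1.68% of all genes did). Without the 3 libraries that stood apart Pdcd1 was called there (log2 fold change 1.27 ± 0.46, adjusted p = 0.0445), in a fit that called 5067 genes in all.

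**Figure D1:**
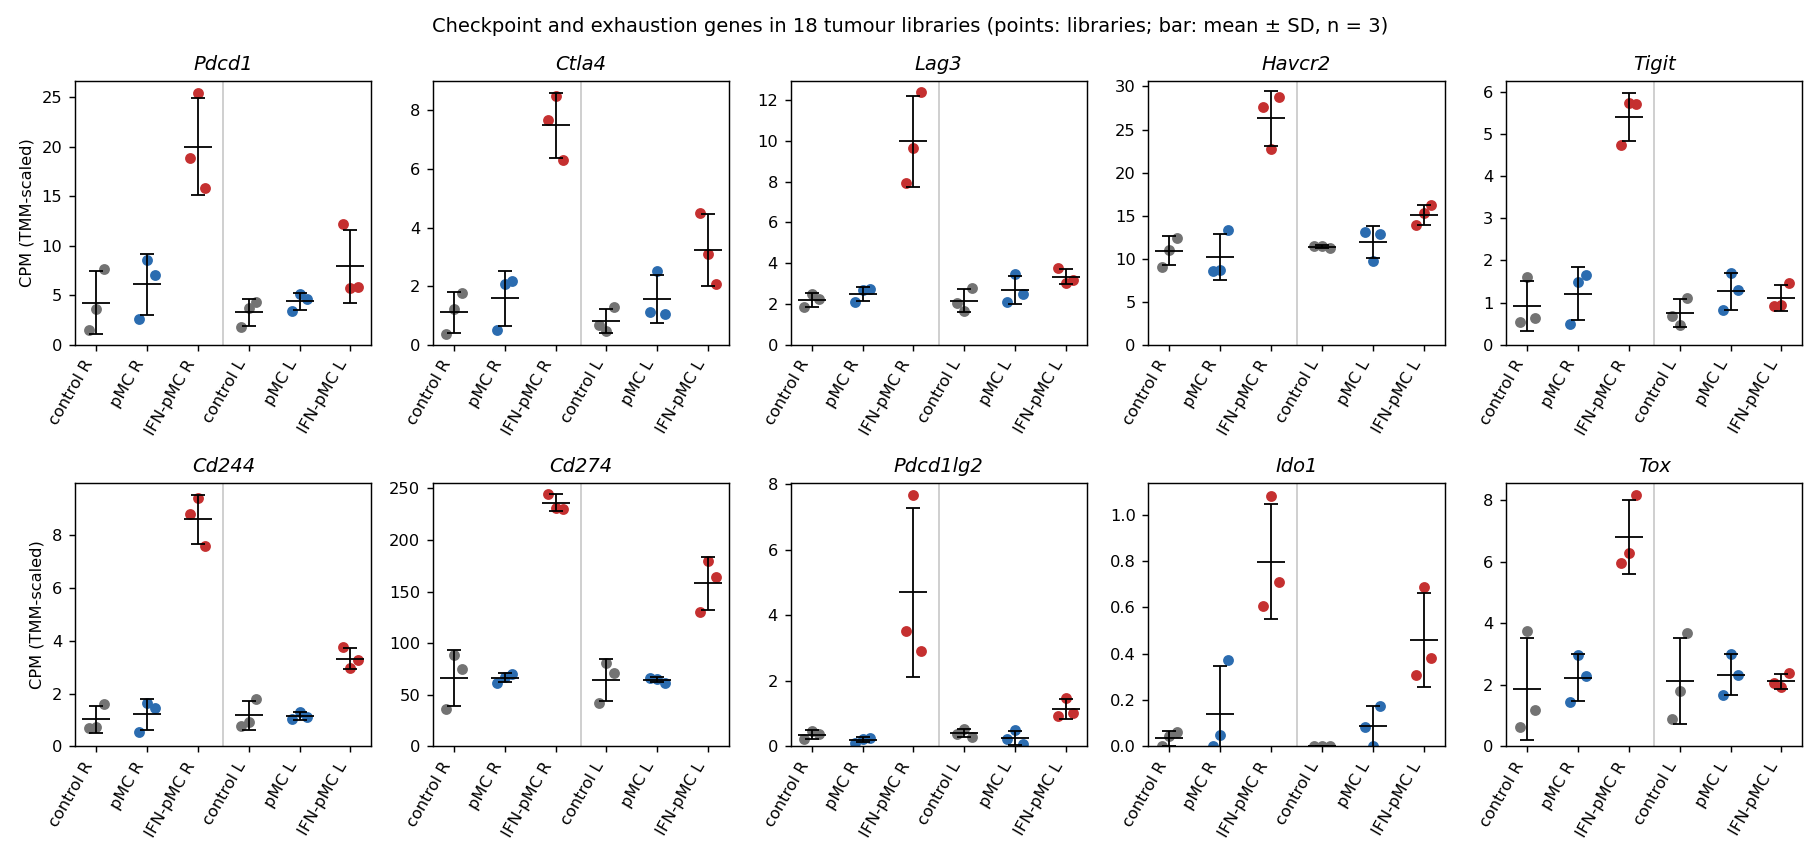
Level of each of the 10 genes in every library (vertical axes: CPM of TMM-scaled totals, each from 0; horizontal axis: the 6 groups, R right and L left, IFN-pMC for IFN-alpha-pMC; points: libraries; bars: mean ± SD, n = 3). The right IFN-alpha-pMC libraries lie above all right control and right pMC libraries for each of the 10 genes.

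Among the receptors, Pdcd1 encodes PD-1, the receptor of PD-L1 and PD-L2 on activated T cells. Its level was 18.8, 25.4 and 15.8 CPM in the right IFN-alpha-pMC libraries, compared with 1.46, 3.57 and 7.69 CPM in the right controls and 2.65, 8.58 and 7.06 CPM with pMC. The groups did not overlap, and the controls spread widely. The log2 fold change against control was 2.26 ± 0.52 (SE, n = 3 per group, adjusted p = 0.008), and against pMC it was 1.71 ± 0.50 (adjusted p = 0.0387). The call against control held without each library in turn, but with the mean level of skeletal muscle markers as a covariate the log2 fold change was 2.38 ± 0.72 (adjusted p = 0.068), and in a fit of only the groups compared the adjusted p was 0.075. The call against pMC was lost in 5 of 6 fits that left out a library: without pMC 1 (adjusted p = 0.159), pMC 2 (0.0537), pMC 3 (0.0825), IFN-alpha-pMC 1 (0.07) or IFN-alpha-pMC 2 (0.135). With the muscle covariate it was 1.82 ± 0.68 (adjusted p = 0.191).

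Ctla4 encodes CTLA-4, which competes with CD28 for the ligands CD80 and CD86 and is also a mark of regulatory T cells. It stood at 7.67, 8.49 and 6.31 CPM with IFN-alpha-pMC on the right, at 0.366, 1.22 and 1.75 CPM in the controls and at 0.498, 2.06 and 2.19 CPM with pMC. Every IFN-alpha-pMC library was well above the others, by a log2 fold change of 2.77 ± 0.55 against control (adjusted p = 0.00269) and 2.23 ± 0.53 against pMC (adjusted p = 0.0108). Without pMC 1 the second gave an adjusted p of 0.0517, and with the muscle covariate both calls were lost at similar fold changes and larger errors (2.55 ± 0.78, adjusted p = 0.0726, and 2.02 ± 0.73, adjusted p = 0.164). Foxp3, the defining transcription factor of regulatory T cells, did not pass the test on the right (log2 fold change 1.10 ± 0.55, adjusted p = 0.235).

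Lag3 encodes a CD4-related receptor of MHC class II molecules. Its counts gave 7.95, 9.63 and 12.4 CPM in right IFN-alpha-pMC tumours, 1.83, 2.49 and 2.25 CPM in right controls and 2.1, 2.69 and 2.73 CPM with pMC. Controls and pMC libraries were close together, and Lag3 had one of the smallest standard errors among the 10 genes, with log2 fold changes of 2.19 ± 0.25 against control (adjusted p = 2.98e-05) and 1.99 ± 0.25 against pMC (adjusted p = 6.07e-05).

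Havcr2, the gene of TIM-3, which is carried by T cells and by myeloid cells, had the smallest rise of the 10 against control. It was at 27.6, 22.7 and 28.8 CPM with IFN-alpha-pMC, at 9.09, 11 and 12.4 CPM in controls and at 8.62, 8.63 and 13.3 CPM with pMC, all on the right. The groups stood apart in both comparisons (log2 fold change 1.28 ± 0.19 against control, adjusted p = 0.00018, and 1.37 ± 0.19 against pMC, adjusted p = 0.00011).

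Tigit encodes a receptor of CD155 on T and NK cells. Its right IFN-alpha-pMC libraries had 4.74, 5.74 and 5.72 CPM, the controls 0.548, 1.61 and 0.625 CPM and the pMC libraries 0.498, 1.49 and 1.66 CPM. The rise was 2.51 ± 0.45 on the log2 scale against control (adjusted p = 0.00121) and 2.14 ± 0.45 against pMC (adjusted p = 0.00385). With the muscle covariate the fold change against pMC was as large with a larger error (2.17 ± 0.61), and the call was lost (adjusted p = 0.0536).

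Cd244 encodes 2B4, a receptor of CD48 on NK cells and T cells. It was at 8.79, 9.39 and 7.58 CPM with IFN-alpha-pMC on the right, 0.685, 0.741 and 1.62 CPM in untreated tumours and 0.553, 1.63 and 1.44 CPM with pMC. The log2 fold change of 3.10 ± 0.39 against control (adjusted p = 5.6e-05) was the second highest after Pdcd1lg2 among the 9 genes other than Ido1. Against pMC it was 2.81 ± 0.38 (adjusted p = 0.000101). Both calls held without each library in turn.

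Of the ligands, Cd274 was by far the more abundant. It was measured at 245, 231 and 230 CPM in the right IFN-alpha-pMC libraries, at 35.9, 88.3 and 75.3 CPM in the controls and at 61.7, 67.1 and 70.4 CPM with pMC. The 3 IFN-alpha-pMC values were close together and far above the rest (log2 fold change 1.82 ± 0.27 against control, adjusted p = 0.000218, and 1.83 ± 0.27 against pMC, adjusted p = 0.000237). An antisense gene overlaps Cd274 in the annotation used for symbols, and without a known strand setting for the counting, reads of the pair cannot be told apart.

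Pdcd1lg2 was under 1 CPM in every control and pMC library. Its right levels were 3.53, 7.66 and 2.92 CPM with IFN-alpha-pMC, 0.228, 0.48 and 0.375 CPM in controls and 0.111, 0.24 and 0.267 CPM with pMC. Summed over 3 libraries this was 278 counts against 22 and 12 counts. The log2 fold change was 3.67 ± 0.49 against control (adjusted p = 9.35e-05) and 4.45 ± 0.53 against pMC (adjusted p = 4.02e-05). Per kilobase of the longest coding transcript, the ratio of the Cd274 level to the Pdcd1lg2 level ranged from 14.4 to 37.6 in the right IFN-alpha-pMC libraries. It ranged from 75.2 to 96 in the right controls and from 126 to 266 with pMC on the right. On the left the ranges overlapped, at 58.5 to 76.1 with IFN-alpha-pMC, 50.6 to 122 in controls and 62.5 to 340 with pMC. The control and pMC ratios rest on few Pdcd1lg2 counts.

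Ido1 encodes the first enzyme of tryptophan breakdown along the kynurenine route, whose depletion of tryptophan restrains T cells. It was the least abundant of the 10 genes, with 13, 18 and 18 counts in the right IFN-alpha-pMC libraries, 0, 1 and 1 in the untreated tumours, and 0, 1 and 7 with pMC. The ratio of the summed counts per library total was 23 against control (exact 95% interval 6.03 to 195, counting error only) and 5.72 against pMC (2.69 to 14). The edgeR test called the difference from control (adjusted p = 0.00809) and not that from pMC (adjusted p = 0.0594). Single libraries moved both across the threshold: without control 1 the adjusted p against control was 0.0523, and without pMC 3, which held 7 of the 8 pMC counts, that against pMC was 0.0084. The difference from pMC was also called with the length and GC correction (adjusted p = 0.0361) and without the 3 libraries that stood apart (0.0446). With the muscle covariate the adjusted p against control was 0.126.

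Tox, the gene of the transcription factor of exhausted T cells, stood at 5.95, 6.28 and 8.17 CPM with IFN-alpha-pMC on the right. The right controls had 0.64, 3.75 and 1.19 CPM and the pMC libraries 1.44, 2.97 and 2.3 CPM. The groups did not overlap, yet this was the least firm of the calls against control (log2 fold change 1.85 ± 0.52, adjusted p = 0.0283), and the difference from pMC of 1.60 ± 0.51 missed the threshold (adjusted p = 0.0594). The first call was lost without control 1 (adjusted p = 0.156), IFN-alpha-pMC 2 (0.0579) or IFN-alpha-pMC 3 (0.0636), without the 3 libraries that stood apart (0.0608), with the muscle covariate (2.58 ± 0.75, adjusted p = 0.0549) and in a fit of only the groups compared (0.24). The second was called in that last fit (adjusted p = 0.0103), without the low count filter (0.0323), with a length and GC correction (0.0351) and by DESeq2 (0.0254). Another antisense gene, Gm11802, overlaps Tox and had 2 counts in all 18 libraries together.

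**Figure D2:**
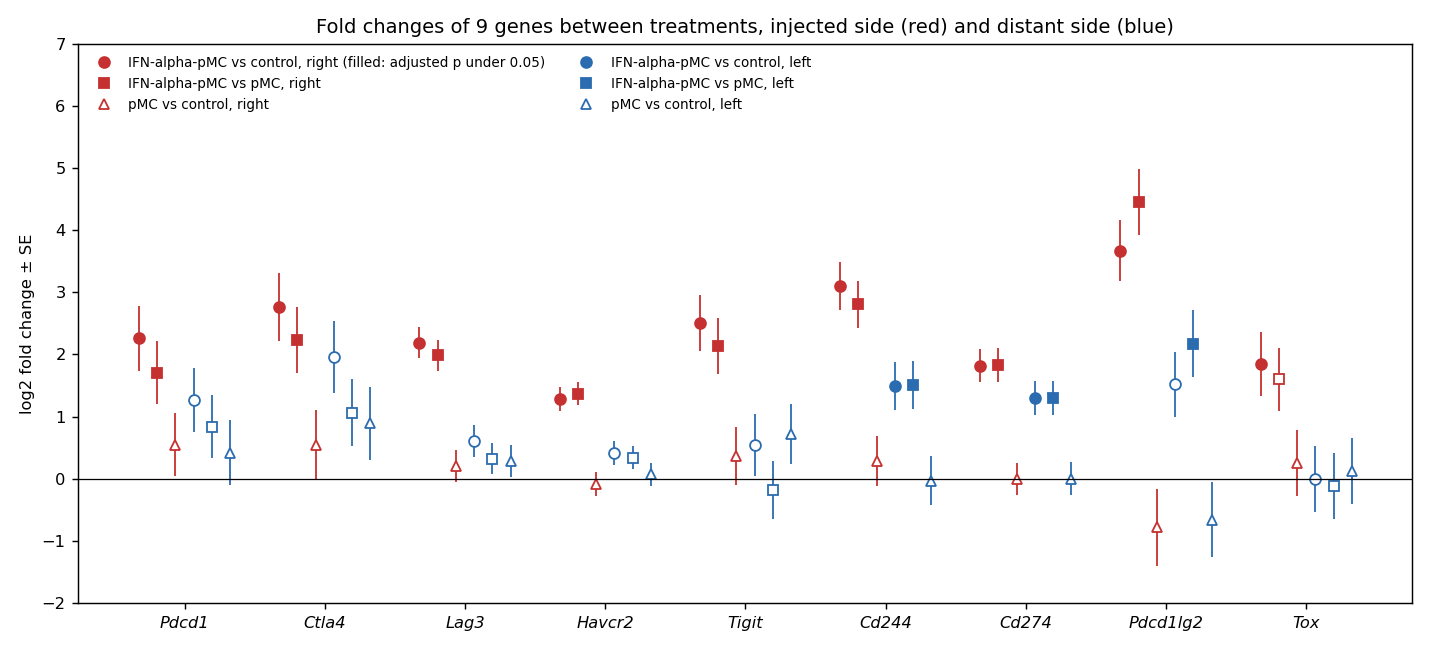
Log2 fold change ± SE (vertical axis) of 9 genes in 6 comparisons between treatments, red on the right and blue on the left; circles compare IFN-alpha-pMC with control, squares IFN-alpha-pMC with pMC and triangles pMC with control, filled where the adjusted p was under 0.05. Ido1 is left out because its fitted value rests on libraries with 0 counts. All 9 circles on the right are filled, from 1.28 for Havcr2 to 3.67 for Pdcd1lg2, and no triangle is.

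Most marker genes of T cells, NK cells, monocytes and macrophages, which carry these receptors, were higher in the same libraries. All 8 T cell markers rose on the right against control (median log2 fold change 2.95), and their summed level was 148 to 198 CPM with IFN-alpha-pMC against 12.2 to 26 CPM in controls. All 5 NK cell markers rose as well (median 2.93, summed level 112 to 148 CPM against 7.81 to 23.7 CPM). Of 8 monocyte and macrophage markers 6 rose (median 1.36), from sums of 549 to 1440 CPM in controls to 1510 to 1710 CPM. The 5 regulatory T cell markers, a list that includes Ctla4, had 2 that rose, Ctla4 itself and Il2ra. Of 6 dendritic cell markers 1 rose (median 0.75, summed level 18.9 to 20.5 CPM against 11.5 to 17.2 CPM). No T cell, NK cell, regulatory T cell or macrophage marker was at 0 in all 3 libraries of any group. Skeletal muscle markers, of which 1 of 9 tested passed on the right (median 2.74), were also higher, with a summed level of 1810 to 3650 CPM against 24.3 to 962 CPM, and against pMC 6 of the 9 passed (median 4.04, 72.6 to 192 CPM with pMC). Fibroblast markers had 2 of 5 that rose against control and 4 of 5 against pMC, all 5 erythroid markers fell against control (median -2.66, 18.1 to 73.8 CPM against 69.1 to 501 CPM), and 1 of 4 endothelial markers, Cdh5, fell. The part of these cell types in the rise of the 10 genes was not tested. With the muscle covariate, 6 of the 10 calls against control and 5 of the 8 against pMC were made. Of the 14849 genes tested, 853 and 702 were called in those fits, beside 1601 and 1497 without the covariate. On the right that covariate (mean log2 CPM) was 7.10 to 8.22 with IFN-alpha-pMC, 1.17 to 6.12 in controls and 2.68 to 4.12 with pMC. It runs with the treatment without overlap, so muscle content and treatment cannot be told apart. The 9 genes other than Ido1 had log2 fold changes of 1.41 to 3.98 against control under that covariate, beside 1.28 to 3.67 without it, and their standard errors were larger.

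As a description, each gene was also set against the T cell receptor complex, as log2 CPM minus the mean log2 CPM of Cd3d, Cd3e, Cd3g and Cd247. That mean was 4.12 ± 0.32 (SD, n = 3) in the right IFN-alpha-pMC libraries and 1.06 ± 0.67 in the right controls. On this relative scale Cd274, Havcr2 and Pdcd1 were lower in every right IFN-alpha-pMC library than in every right control, by differences of -1.14, -1.79 and -0.59, and the other 7 genes overlapped. For 95.1% of all tested genes every IFN-alpha-pMC library was lower on that scale, and for 0.0875% every one was higher. Cd244 (-0.02), Ctla4 (-0.22) and Pdcd1lg2 (0.22) were the members nearest to the Cd3 genes. Lag3 (-0.94), Tox (-0.92) and Tigit (-0.51) were lower on this scale in the mean, with overlapping libraries.

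**Figure D3:**
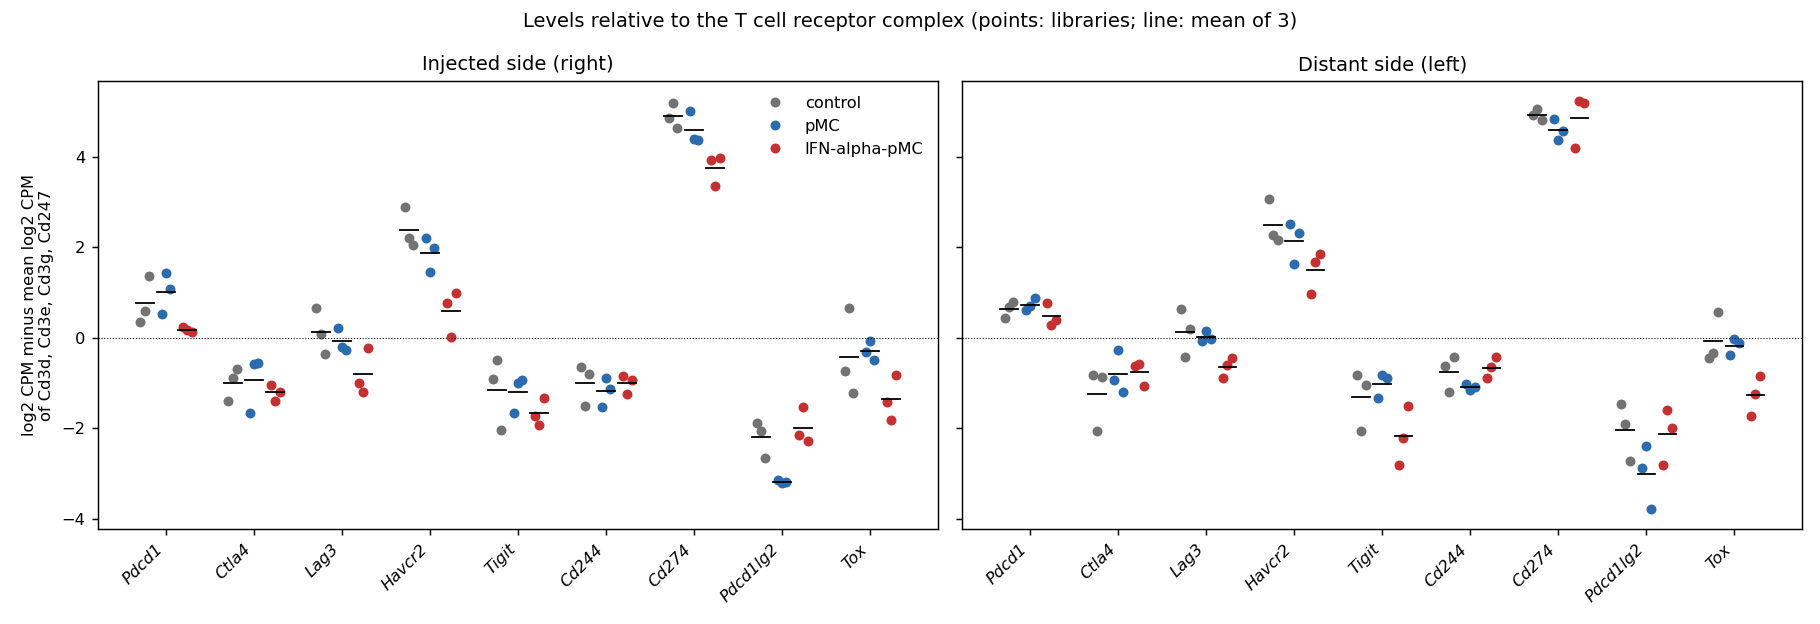
Log2 CPM of 9 genes minus the mean log2 CPM of Cd3d, Cd3e, Cd3g and Cd247 (vertical axis), on the injected and the distant side (points: libraries; line: mean of 3). On the right, Cd274 and Havcr2 are lower with IFN-alpha-pMC (red) than in controls (grey) by 1.14 and 1.79, while the Cd244 libraries of both groups overlap.

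On the distant side fewer of the 10 genes passed the test. With IFN-alpha-pMC against control, 3 of the 10 rose, Cd274, Cd244 and Ido1 (4.05% of all genes rose and 2.6% fell). For 8 of the 10, every IFN-alpha-pMC library was above every control library. This held for 25.8% of all genes, and 23.9% had every one below. The median log2 fold change of the 10 was 1.28, against 0.07 over all genes. Against pMC, 3 rose, Cd274, Pdcd1lg2 and Cd244 (2.71% of all genes). For 6 of the 10, every IFN-alpha-pMC library was above every pMC library. This held for 21.3% of all genes, and 21.9% had every one below. Between pMC and control on the left none of the 10 was called, as none of all genes was (0%), and none had every pMC library above every control library (9.7% of all genes did).

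The left libraries had 130, 180 and 164 CPM of Cd274 with IFN-alpha-pMC, 41.8, 80.5 and 71.2 CPM in controls and 66.2, 65.6 and 61.9 CPM with pMC. All 3 treated libraries were above the others, with the same log2 fold change of 1.30 ± 0.27 against control (adjusted p = 0.0156) and against pMC (adjusted p = 0.0206). The call against control was lost without control 1 (adjusted p = 0.0923), control 3 (0.0718) or IFN-alpha-pMC 2 (0.0661). That against pMC was lost without any 1 pMC library (0.0891, 0.0934 and 0.0834) or IFN-alpha-pMC 2 (0.0972). Both held with the muscle covariate.

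For Cd244 the left values were 3.75, 2.95 and 3.26 CPM with IFN-alpha-pMC, 0.79, 0.939 and 1.78 CPM in controls and 1.03, 1.32 and 1.13 CPM with pMC. These did not overlap, and the log2 fold change was 1.49 ± 0.39 against control (adjusted p = 0.0393) and 1.51 ± 0.38 against pMC (adjusted p = 0.0398). Each of the 6 fits that left out a library lost both calls, with adjusted p from 0.0561 (without IFN-alpha-pMC 3) to 0.14 (without control 1) against control, and from 0.0687 (without IFN-alpha-pMC 3) to 0.134 (without pMC 2) against pMC. With the muscle covariate the log2 fold changes were 1.33 ± 0.56 and 1.36 ± 0.55 (adjusted p = 0.221 and 0.237).

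Ido1 had 4, 14 and 7 counts in the left IFN-alpha-pMC libraries, none in the 3 left controls and 2, 0 and 4 with pMC. With a floor of 3 counts set for the control group, which had none, the 25 summed counts gave a ratio of 7.39 per library total. That value depends on the floor and is not a measured ratio. It leaves out the error of the 25 counts and the spread between libraries. The edgeR test, which uses its own fitted value, called the difference from control (adjusted p = 0.0348). The call was lost without any 1 control (adjusted p = 0.108, 0.0934 and 0.12) or IFN-alpha-pMC 2 (0.107), and with the muscle covariate (0.184). Against pMC the ratio of summed counts was 4.69 (exact 95% interval 1.88 to 14, counting error only), and the test did not call it (adjusted p = 0.108).

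Pdcd1lg2 stood at 0.918, 1.47 and 1.03 CPM on the left with IFN-alpha-pMC, at 0.395, 0.537 and 0.279 CPM in controls and at 0.215, 0.502 and 0.0871 CPM with pMC. Each treated library was above each of the others. The log2 fold change of 2.17 ± 0.54 against pMC passed the test (adjusted p = 0.0378) and that of 1.52 ± 0.52 against control did not (adjusted p = 0.0682). The call against pMC was lost without pMC 1 (adjusted p = 0.123), pMC 2 (0.0585), pMC 3 (0.123), IFN-alpha-pMC 2 (0.144) or IFN-alpha-pMC 3 (0.0609), and with the muscle covariate (2.54 ± 0.77, adjusted p = 0.179). The difference from control was called by DESeq2 (0.0438), in a fit of only the groups compared (0.0332) and without the 3 libraries that stood apart (0.035).

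Ctla4 had 4.51, 3.1 and 2.06 CPM in the left IFN-alpha-pMC libraries, 0.677, 0.47 and 1.28 CPM in controls and 1.12, 2.51 and 1.05 CPM with pMC. The difference from control, 1.96 ± 0.58 on the log2 scale without overlap, lay at the threshold (adjusted p = 0.0503). It was called without the low count filter (adjusted p = 0.032), by DESeq2 (0.0116), in a fit of only the groups compared (0.0213) and without the 3 libraries that stood apart (0.0472).

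Pdcd1 was at 12.2, 5.75 and 5.81 CPM on the left with IFN-alpha-pMC, 1.75, 3.76 and 4.29 CPM in controls and 3.44, 5.08 and 4.66 CPM with pMC. The high value belongs to IFN-alpha-pMC 1, a library that stood apart, and the difference from control did not pass (1.27 ± 0.52, adjusted p = 0.103). Lag3 had 3.75, 3.05 and 3.2 CPM against 2.03, 1.68 and 2.79 CPM in controls (0.61 ± 0.26, adjusted p = 0.108). Havcr2 had 13.9, 15.3 and 16.2 CPM against 11.5, 11.5 and 11.2 CPM (0.41 ± 0.19, adjusted p = 0.128). These 3 genes lay above the controls in every treated library, by differences that the test over all genes did not call.

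Tigit and Tox were the members with overlapping libraries on the left. Tigit had 0.918, 0.933 and 1.47 CPM with IFN-alpha-pMC and 0.677, 0.47 and 1.11 CPM in controls (log2 fold change 0.54 ± 0.50, adjusted p = 0.414). Tox had 2.07, 1.92 and 2.39 CPM and 0.903, 1.81 and 3.68 CPM (-0.01 ± 0.53, adjusted p = 0.991). In the order of mean levels, the left IFN-alpha-pMC group took place 4 of 6 for Tigit and place 5 for Tox, within the spread of its neighbours in that order, and it came after the right IFN-alpha-pMC group for each of the other 8 genes.

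T cell markers on the left had 6 of 8 that rose against control (median log2 fold change 1.38, summed level 40.4 to 62.4 CPM against 13.3 to 25.5 CPM), and NK cell markers 4 of 5 (median 1.87, 32.4 to 57.5 CPM against 13.4 to 19.3 CPM). Of the monocyte and macrophage markers 3 of 8 rose (median 0.93, 1070 to 1690 CPM against 612 to 758 CPM). Muscle markers were higher there too, with 3 of 9 past the test and a summed level of 653 to 1260 CPM against 7.25 to 298 CPM. Under the muscle covariate Cd274 alone of the 10 genes was called on the left, in both comparisons. Of the 14849 genes tested, 67 and 50 were called there against control and pMC, beside 987 and 572 without the covariate. There too that covariate runs with the treatment, at 5.78 to 6.65 with IFN-alpha-pMC, -0.75 to 4.26 in controls and -1.02 to 3.28 with pMC. Relative to the Cd3 genes, whose mean was 2.42 ± 0.36 with IFN-alpha-pMC and 1.02 ± 0.49 in control (SD, n = 3), Lag3 (-0.78), Havcr2 (with means of 1.50 and 2.50) and Tox (-1.21) were lower in every treated library, as 84.1% of all tested genes were (0.532% were higher in every one). Cd274 (-0.07), Pdcd1lg2 (-0.10), Cd244 (0.09) and Pdcd1 (-0.15) differed little from the Cd3 genes in the mean. The left values depend on which Cd3 genes are used, since Cd3d differed by 2.20 and Cd3e by 0.66 on the log2 scale there. Against Cd3e alone they were -0.06 for Lag3, -0.28 for Havcr2, -0.49 for Tox, 0.66 for Cd274 and 0.82 for Cd244.

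A direct comparison of the injected with the distant side of the IFN-alpha-pMC mice called 4 of the 10 genes as higher on the right (2.49% of all genes). For 9 of the 10, every right library was above every left library. This held for 10.5% of all genes, and 3.58% had every one below. Lag3 had the firmest difference (log2 fold change 1.59 ± 0.25, adjusted p = 0.00233), which held without each of the 6 libraries in turn. Tigit differed by 2.27 ± 0.45 (adjusted p = 0.0113), Pdcd1lg2 by 2.01 ± 0.44 (adjusted p = 0.019) and Havcr2 by 0.80 ± 0.18 (adjusted p = 0.0264). The Tigit call was lost without left 1 (adjusted p = 0.0716), left 2 (0.0696) or right 3 (0.0507). That of Pdcd1lg2 was lost without left 1 (0.0984), left 2 (0.0584), left 3 (0.0904) or right 2 (0.123) and in a fit of only these groups (0.0688). That of Havcr2 was lost without any library but right 2 (adjusted p = 0.0759 and 0.144 without right 1 and right 3, 0.122, 0.101 and 0.0665 without left 1, 2 and 3), without the libraries that stood apart (0.0749) and in a fit of only these groups (0.111).

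Cd244 lay at the threshold between sides (1.37 ± 0.35, adjusted p = 0.0502). It was called without the low count filter (adjusted p = 0.035), without the libraries that stood apart (0.0301), with the length and GC correction (0.0271), by DESeq2 (0.00386) and in a fit of only these groups (0.035). Tox was called by DESeq2 (0.0488) and in a fit of only these groups (0.0314), and Pdcd1 without the libraries that stood apart (0.03). Cd274 differed by 0.57 ± 0.26 (adjusted p = 0.417). T cell markers were higher on the right in 7 of 8 cases (median log2 fold change 1.71), NK cell markers in 2 of 5 (1.40), monocyte and macrophage markers in 4 of 8 (0.87) and muscle markers in 1 of 9 (1.54), and their part in the difference between sides was not tested. Relative to the Cd3 genes, Cd274 (-1.12), Pdcd1 (-0.31) and Ido1 were lower in every right library and the other 7 genes overlapped, while 88.3% of all tested genes were lower in every one. Whether the difference from control itself was larger on the right was tested as an interaction. None of the 10 passed, as none of all genes did (0%), and Lag3 came nearest (1.58 ± 0.36, adjusted p = 0.137). All 9 genes other than Ido1 had a positive difference between the sides, with a median of 1.58 against 0.01 over all genes. The fitted value of Ido1 went the other way (-1.87 ± 1.84), and the median over all 10 was 1.28. DESeq2 called Lag3 (1.57 ± 0.40, adjusted p = 0.0219), and without the 3 libraries that stood apart Lag3 (adjusted p = 0.0485) and Cd244 (0.0372) were called.

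In a comparison of levels between genes per kilobase of transcript, Cd274 led in the right IFN-alpha-pMC group with 65 ± 2.3 CPM per kb (SD, n = 3), followed by Pdcd1 with 10.4 ± 2.54 and Havcr2 with 9.68 ± 1.19, whose spreads overlap. Tigit, Lag3, Ctla4, Pdcd1lg2, Cd244 and Tox came next, from 5.88 down to 1.72 CPM per kb, and Ido1 was last at 0.481 ± 0.15. In the right controls the leading genes were Cd274 at 18.4 and Havcr2 at 3.99 CPM per kb, ahead of Pdcd1 at 2.2.

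By pattern over the 18 libraries (root mean square difference of centred log2 CPM, over all tested genes outside the 10), Cd274 lay nearest to Il18bp (0.20), Gm4951 (0.20) and Ifi44 (0.22). The nearest to Pdcd1 were Trbc2, a constant segment of the T cell receptor (0.29), Sh2d1a (0.31) and Cytip (0.33). Lag3 was nearest to Crybg1 (0.20) and to Itgal, an integrin of leukocytes (0.22), and Havcr2 to the scavenger receptor gene Cd36 (0.20), Rassf4 (0.20) and the kinase gene Lyn (0.21). Tigit was nearest to Sh2d2a (0.26) and Il2rb (0.36), Ctla4 to Lax1 (0.36) and Trbc2 (0.37), and Cd244 to Gm49339 (0.26) and Srgn (0.27). The nearest to Tox was Mmp25 (0.35), that to Ido1 was Gpr141 (0.42) and that to Pdcd1lg2 was Tcrg-C2 (0.50). Among the 10 genes themselves the nearest pair was Lag3 with Tigit (0.42). All these values share the same 18 libraries and their depth.

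The genes around the checkpoints were taken from 5 further lists. Of the ligands, competitors and signalling partners of the 10 genes, 8 of 14 tested rose on the right against control and none fell (median log2 fold change 1.01). Cd28, the costimulatory receptor that CTLA-4 competes with and the neighbour of Ctla4 on chromosome 1, went from 1.56 ± 0.436 to 14.3 ± 2.31 CPM (SD, n = 3; log2 fold change 3.19 ± 0.33, adjusted p = 1.14e-05). Cd96 (3.07 ± 0.46) and Cd226 (2.48 ± 0.42), which share CD155 with TIGIT as a ligand, rose with adjusted p of 0.000255 and 0.000627. Sh2d1a, the adaptor SAP of receptors such as 2B4, rose by 2.37 ± 0.61 on the log2 scale (adjusted p = 0.0176). On the left 3 of 14 rose, Cd226 (2.45), Cd48 (1.55), the ligand of 2B4, and Cd86 (1.62), a ligand of CTLA-4.

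Of other inhibitory receptors and their ligands, 7 of 11 tested rose on the right and none fell (median 1.60). The highest were Klrg1 (4.20 ± 0.57, adjusted p = 0.000104) and Klrc1 (3.51 ± 0.61, adjusted p = 0.00087), inhibitory lectin receptors of NK cells and T cells. Klrg1 rested on 3, 4 and 13 counts in the right controls against 118, 142 and 140. Cd5, a damper of T cell receptor signals, rose by 2.90 ± 0.31 (adjusted p = 1.76e-05) and Cd200r1, a receptor of myeloid cells, by 1.91 ± 0.41 (adjusted p = 0.00441). On the left 4 of 11 rose, Klrg1 (2.57), Klrc1 (2.35), Cd200r1 (1.67) and Tnfrsf14 (0.70).

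Of the factors of exhausted and effector T cell states, 9 of 16 tested rose on the right and none fell (median 0.98). The 7 not called were Nr4a1 (-0.31), Nr4a2 (-0.42), Nr4a3 (-0.56), Nfatc2 (-0.50), Batf (0.33), Tcf7 (0.63) and Nfatc1 (0.68). Tbx21, the gene of the effector factor T-bet, led with 3.37 ± 0.34 (adjusted p = 1.1e-05), before the chemokine receptor gene Cxcr6 (3.01 ± 0.59, adjusted p = 0.00224), Slamf6, a surface receptor of less differentiated exhausted cells (2.44 ± 0.43, adjusted p = 0.00104), and Cd101, a surface protein of late exhausted cells (2.26 ± 0.55, adjusted p = 0.0123). On the left Cxcr6 (2.73) and Entpd1 (0.86) rose, and Nr4a3, a nuclear receptor gene induced by T cell receptor signals, fell. It was at 103, 113 and 141 CPM with IFN-alpha-pMC and at 198, 250 and 253 CPM in left controls, without overlap (log2 fold change -0.97 ± 0.27, adjusted p = 0.0474). The 8 T cell markers together summed to 13.3 to 25.5 CPM in those controls. The cells of origin of the Nr4a3 counts were not tested, and the Nr4a3 level is therefore not read as one of T cells.

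Around Ido1, 2 of 7 tested genes of tryptophan catabolism rose on the right, Kmo (1.82 ± 0.30, adjusted p = 0.000497) and Kynu (a fold change of 3.48, adjusted p = 0.00338), which act downstream of IDO1 on kynurenine, and the list's median was 0.19. On the left Kynu alone passed (1.78). Of the genes of the interferon-gamma pathway, Ifng itself was at 8.18, 6.58 and 6.51 CPM with IFN-alpha-pMC against 0.32, 1.26 and 0.437 CPM in right controls (3.35 ± 0.40, adjusted p = 3.94e-05). Irf1, an interferon-induced transcription factor gene (1.23 ± 0.18, adjusted p = 0.00015), and the receptor gene Ifngr1 (1.10 ± 0.18, adjusted p = 0.000439) also rose. On the left Ifng (2.26) and Irf1 (1.07) rose. No gene of the 5 lists passed the test between pMC and control on either side.

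**Figure D4:**
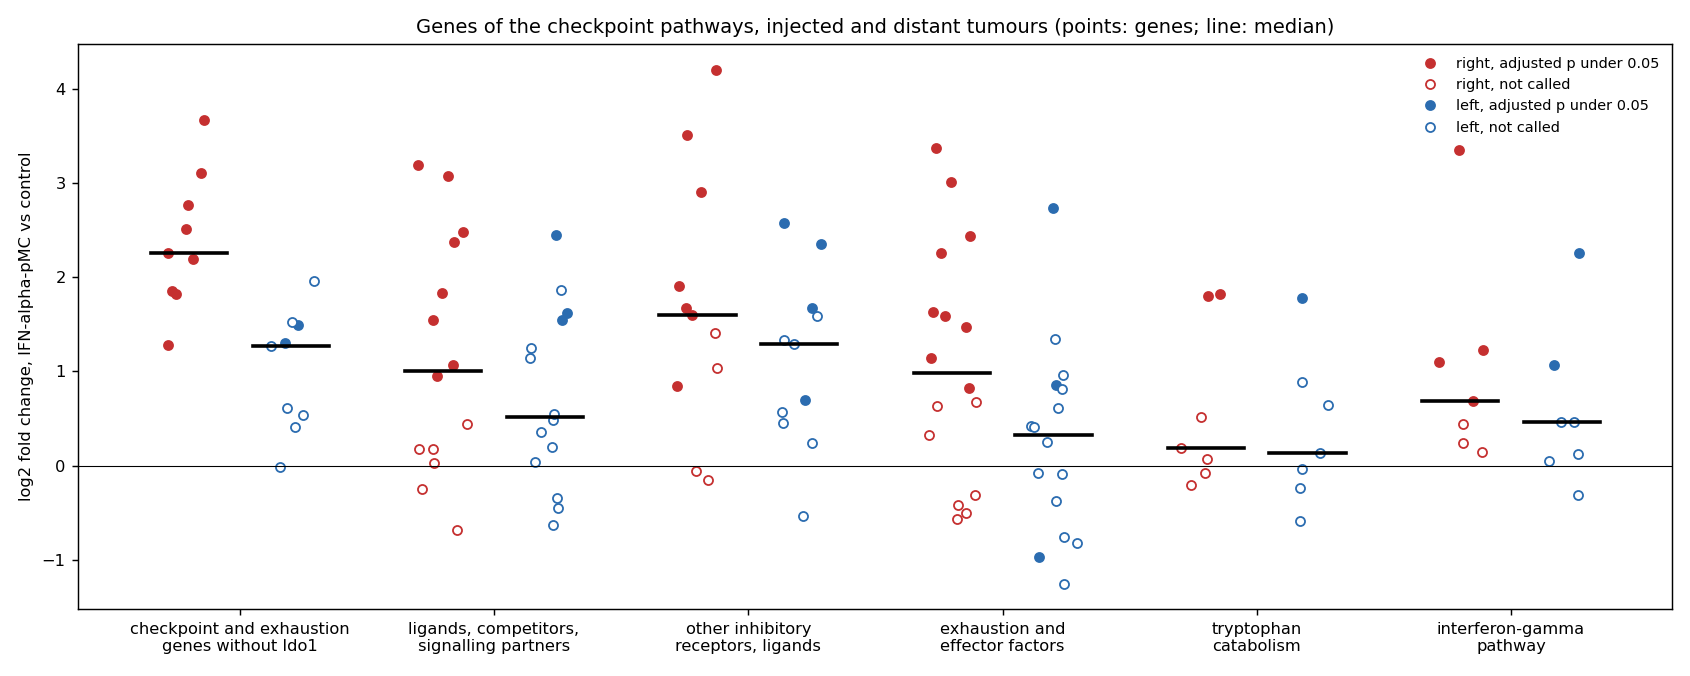
Log2 fold change of IFN-alpha-pMC against control (vertical axis) for each tested gene of the checkpoint and exhaustion genes without Ido1 and of 5 related lists, right (red) and left (blue); points are genes, filled where the adjusted p was under 0.05, and lines are medians. The right medians are above the left ones in every list, and the blue filled point below 0 is Nr4a3 at -0.97.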

How the data were processed

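The authors deposited, for each of the 18 libraries, raw read-pair counts for each Ensembl gene. Per the submitters' processing notes the build was mm9, and reads were trimmed and checked with Trimmomatic 0.36 and FastQC after CASAVA 1.8.2 and bcl2fastq. The same notes name the aligner HISAT2 2.1.0, the counter HTSeq 0.10.0, and also DESeq2 1.20.0. Counting mode and strand setting were not stated there. Symbols came from GENCODE M21 and promoter windows from RefSeq (GRCm38.p6). Rows that name no gene (unassigned pairs) were left out; 60.19 to 70.71% of pairs were assigned. Counts were tested with edgeR 4.0.16 in R 4.3.3 (TMM, filterByExpr, quasi-likelihood F test, 1 mean per group over all 18 libraries, 12 residual degrees of freedom, biological coefficient of variation 23.7%), with Benjamini-Hochberg adjustment over 14849 genes and a threshold of 0.05. The script was tested on simulated data. Standard errors are the log2 fold change divided by the square root of F, and log2 CPM values used a prior count of 2. Transcript lengths are those of the longest coding transcript. No 2 libraries of a group agreed within sampling noise. Alternatives were other scaling, no low count filter, DESeq2 1.42.0, each library left out, the 3 libraries that stood apart left out, a replicate block, a muscle covariate and a length and GC correction. A fit of only the groups compared was added after the data were seen. The 10 genes and all lists were chosen with earlier results of these data known. Named from each related list are the up to 4 genes past the test on the right with the largest change and up to 2 past it on the left alone. For the factors of exhausted and effector states, those not called on the right are named as well. Other genes named beside a small count were chosen after their values were seen. 1 result of the interferon-gamma list is not reported here.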

Additional observations from a re-analysis of the deposited data

How the results depend on the processing

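With TMM replaced by DESeq2's size factors, each of the 80 tests of the 10 genes kept its direction where called and its side of the threshold. The other settings moved counts. Without the 3 libraries that stood apart, the genes past the threshold over all tested numbered 8175 (IFN-alpha-pMC against control, right; 1601 with all libraries), 4287 (against pMC, right; 1497), 5067 (pMC against control, right; 0), 4331 (IFN-alpha-pMC against control, left; 987), 4142 (against pMC, left; 572), 863 (right against left; 375) and 761 (side difference; 0). Of the 10 genes, 1 (pMC against control, right), 5 (IFN-alpha-pMC against control, left) and 2 (side difference) were then called. With the muscle covariate the counts were 853 and 702 on the right and 67 and 50 on the left, against control and pMC, with 6, 5, 1 and 1 of the 10 genes. A fit of only the groups compared, chosen after seeing the data, gave 582 genes against control on the right, 3062 and 2538 against control and pMC on the left, 1 for pMC against control on the left and 190 for right against left. DESeq2 gave 2864 and 2059 for IFN-alpha-pMC on the left, 586 for right against left, 87 for the side difference (1 of the 10 genes), and 2 (right) and 1 (left) for pMC against control. The length and GC correction gave 2417 against pMC on the right, 588 for right against left and 15 for the side difference, and without the low count filter the latter was 7. The causes were not tested.

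Leaving out 1 library at a time gave 1090 to 3946 genes (8 to 10 of the 10) against control on the right, 1027 to 1893 (6 to 8) against pMC on the right, 86 to 494 (0 to 2) against control on the left, 33 to 414 (0 to 2) against pMC on the left, 141 to 360 (1 to 3) for right against left, 0 to 13 (0) for the side difference, and 0 to 1 and 0 (0 of the 10 in both) for pMC against control on the right and on the left. Same-numbered libraries did not deviate together in every pair. Correlations were 0.32, -0.19 and 0.39 between the sides of IFN-alpha-pMC mice, and 0.62, 0.22 and -0.00 between those of control mice. The numbers are therefore not taken to pair the samples, though these values do not settle whether they do. With the replicate block the counts were 464 and 350 genes for IFN-alpha-pMC on the left, against control and pMC, 20 for the side difference, and 7 of the 10 genes for right against left, with Pdcd1 (adjusted p = 0.0232), Tox (0.0239) and Cd244 (0.00926) added; it also called Tox against pMC on the right (0.0241). Set against Cd3e alone in place of the 4 Cd3 genes, the differences of all 10 genes on the left moved by more than the spread between libraries, and at a prior count of 0.5 those of Ido1 moved on both sides. Depth limits Ido1 and Pdcd1lg2, whose control and pMC libraries held few counts.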
